A study of Mus musculus with 5 samples.

Results

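A set of 5 mouse genes of the Sp100 family and its repeat, *Csprs*, *C130026I21Rik*, *Sp100*, *Sp110* and *Sp140*, were followed by name through 5 single-cell libraries of the trachea. All 5 were found among the 30907 mouse features of the files. They had been chosen because they were high in cells derived from a transplant, so their levels in those cells against the other cells are given below as a description, with no test. *Sp100* encodes a component of PML nuclear bodies, the nuclear dots that gather many chromatin and antiviral proteins. *Sp110* and *Sp140* encode relatives of Sp100 that carry a SAND domain and act at chromatin in immune cells. These family genes are known to be inducible by interferon. Mouse *Sp110* is also called Ipr1 and is known from the sst1 locus of tuberculosis susceptibility. *Csprs* is named as a component of the Sp100-rs repeat, and no role is given here for *C130026I21Rik*.

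The 2 donor-derived libraries held live GFP+ cells sorted from the tracheas of recipients, 40 and 56 days after transplantation of basal cells (iBCs) made from embryonic stem cells. The 2 endogenous libraries held live GFP- cells from the same recipients, and the control library held live cells of 1 trachea with neither injury nor transplantation. Recipients had been given 2% polidocanol in the trachea 5 hours before the cells, and strain 129X1/S1 is labelled for every sample. The genetic background of the stem cell line is not given in the labels, and each day is 1 recipient, so day and animal cannot be told apart and day was not tested. Transplantation and GFP sort define the donor-derived group together.

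After filters 6554 cells were left, with 611 to 1731 per library and a median of 9999 to 12783 UMIs per cell. Library pairs shared at most 2 cell barcodes. The control library stood apart: 192 of its 808 barcodes had over 10% human UMIs and were left out, which left 7493284 mouse UMIs against 17730070 to 25566691 in the other libraries. Cells were clustered with the 5 genes kept out of the gene set used, and clusters were named from marker genes. Basal-like cells had 1105 to 1655 CPM of *Krt5* in every library, secretory-like cells had at least 305376 CPM of *Scgb1a1*, and ciliated-like cells had 400 to 578 CPM of *Foxj1*. Other markers differed between the groups within a class. *Trp63*, a basal cell transcription factor gene, had 171 and 219 CPM in donor-derived basal-like cells, against 364 and 409 CPM in endogenous ones, with 335 CPM in the control. The secretoglobin gene *Scgb3a2* had 9616 and 22926 CPM in donor-derived secretory-like cells, against 49431 and 53321 CPM in endogenous ones, with 53154 CPM in the control. Their part in the results was not tested. Donor-derived cells mostly fell into clusters of their own, also within a class: clusters 0, 2 and 8 held most donor-derived basal-like cells and cluster 1 most endogenous and control ones. Clusters 3 and 10 held most donor-derived secretory-like cells and 5, 7 and 12 most others, and cluster 16 held most donor-derived ciliated-like cells and 6 and 13 most others. Among the leading genes were *Sftpc*, a lung surfactant gene, in cluster 0 and the interferon-induced *Cxcl10* and *Gbp5* in cluster 8. Levels are UMI counts summed over the cells of a class, in counts per 1000000 (CPM) scaled by TMM. Intervals are exact Poisson or Clopper-Pearson 95% intervals and cover counting error only. Fewer molecules per cell and fewer cells with the molecule cannot be told apart in such sums.

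In the GRCm38 annotation 4 of the genes lie on chromosome 1. *C130026I21Rik* (ENSMUSG00000052477) spans chr1:84992690-85270566 on the minus strand. *Sp110* (ENSMUSG00000070034) follows at chr1:85576899-85598817 on the minus strand. *Sp140* (ENSMUSG00000070031) lies at chr1:85600378-85645037 on the plus strand, so that the annotated starts of *Sp110* and *Sp140* are 1561 bases apart and point away from each other. *Sp100* (ENSMUSG00000026222) lies at chr1:85649988-85709998 on the plus strand. *Csprs* (ENSMUSG00000062783) is placed on the unplaced scaffold GL456221.1, from 111572 to 163011 on the minus strand. Promoter sequences from RefSeq (GRCm38.p6, 250 bases before to 50 after a start) were found for 4 of the 5 genes, and *Csprs* had no entry. The promoters of *C130026I21Rik* (chr1:85270517-85270816, minus strand) and *Sp140* (chr1:85600453-85600752, plus strand) are shown because they share an identical run of 146 bases, given in capitals.
C130026I21Rik: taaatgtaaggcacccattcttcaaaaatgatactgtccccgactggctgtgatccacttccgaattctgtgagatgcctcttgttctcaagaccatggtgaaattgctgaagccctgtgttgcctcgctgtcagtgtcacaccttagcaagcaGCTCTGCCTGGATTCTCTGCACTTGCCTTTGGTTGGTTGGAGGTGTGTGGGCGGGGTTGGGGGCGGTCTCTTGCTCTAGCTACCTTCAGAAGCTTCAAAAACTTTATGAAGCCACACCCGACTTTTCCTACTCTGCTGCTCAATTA
Sp140: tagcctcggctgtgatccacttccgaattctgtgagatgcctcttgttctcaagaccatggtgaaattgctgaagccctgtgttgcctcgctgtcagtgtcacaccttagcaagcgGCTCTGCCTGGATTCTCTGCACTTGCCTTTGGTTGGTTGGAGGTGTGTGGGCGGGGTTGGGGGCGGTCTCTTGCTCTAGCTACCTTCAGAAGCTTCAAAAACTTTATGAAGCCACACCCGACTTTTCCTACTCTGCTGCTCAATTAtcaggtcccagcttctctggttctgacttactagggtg

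The longest run shared by any promoter of *Sp100* with one of *Sp110* was 11 bases. Neither the core of the interferon-stimulated response element, searched as GAAA, any 2 bases and GAAA again, nor TTCNNNGAA, the core of the gamma-activated site, occurred on either strand in the promoter windows of the 4 genes. They occurred in 3.44% and 8.30% of 32851 promoters of the same length, so that none is the usual outcome for 4 genes. Only exact matches were searched, and nothing is read from their absence. Transcripts of these genes also share sequence with other genes, which bears on how reads can be assigned. Of all stretches of 75 bases in the annotated transcripts, 28.2% were shared with another gene for *Sp140*, 24.9% for *Sp110*, 16.1% for *C130026I21Rik* and 3.12% for *Sp100*. For *C130026I21Rik* the gene sharing most was *Sp140* (8.53% of its stretches), followed by *A530032D15Rik* (5.59%). Levels of these genes are therefore uncertain as to the exact copy, and *Csprs*, with no entry in the transcript table, was not compared. The stretches cover whole transcripts, and the part that the reads come from was not looked at. The share of reads that is uncertain is thus not known.

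*Csprs* and *C130026I21Rik* were far higher in donor-derived than in endogenous or control epithelium. *Csprs* was at most 4.79 CPM in these 3 epithelial classes of the endogenous and control libraries, and *C130026I21Rik* reached 13.6 CPM in endogenous secretory-like cells of day 56, above the 10.6 CPM of *Sp140* there. In basal-like cells *Csprs* had 76.1 and 56.9 CPM in the donor-derived libraries of days 40 and 56, against 0.678 and 0.346 CPM in the endogenous libraries. None was found in the control. Those endogenous levels rest on 4 UMIs, against 1316 UMIs in donor-derived cells. *C130026I21Rik* had 404 and 214 CPM in donor-derived basal-like cells, against 4.07 and 11.1 CPM in endogenous ones and 0 in the control. The ranges of donor-derived and endogenous libraries lay far apart for both genes. The fitted log2 fold change in basal-like cells was 6.86 ± 0.36 (SE) for *Csprs* and 5.41 ± 0.60 for *C130026I21Rik*. Without the endogenous library of day 40 it was 7.48 for *Csprs* and 4.76 for *C130026I21Rik*, without that of day 56 it was 6.21 for *C130026I21Rik*, and with coarser clusters (resolution 0.5) it was 5.53 for *Csprs*. With no UMI of either gene in 73 control basal-like cells, the donor-derived mean was at least 17.8-fold higher for *Csprs* and at least 82.5-fold higher for *C130026I21Rik*, against a floor of 3 counts in that library.

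*Sp100*, *Sp110* and *Sp140* were detected in every library and differed by smaller factors. *Sp100* had 119 and 105 CPM in donor-derived basal-like cells, against 28.7 and 41.8 CPM in endogenous ones, with 22.5 CPM in the control. *Sp110* had 56.6 and 36.3 CPM in donor-derived basal-like cells, against 17.8 and 18.0 CPM in endogenous ones, with 4.99 CPM in the control. *Sp140* had 44.1 and 21.2 CPM in donor-derived basal-like cells, against 11.5 and 9.33 CPM in endogenous ones, with 2.50 CPM in the control, the last from 2 UMIs. For all 3 genes both donor-derived libraries lay above both endogenous ones, and these above the control, an order that held for 11.7% of the genes tested in basal-like cells. Their log2 fold changes, donor-derived over endogenous, were 1.65 ± 0.20 for *Sp100*, 1.35 ± 0.25 for *Sp110* and 1.61 ± 0.41 for *Sp140*, the last being 0.98 without the donor-derived library of day 40. Between the days, donor-derived basal-like cells of day 40 had the higher level of each of the 5 genes, with 1 recipient behind each day.

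**Figure D1:**
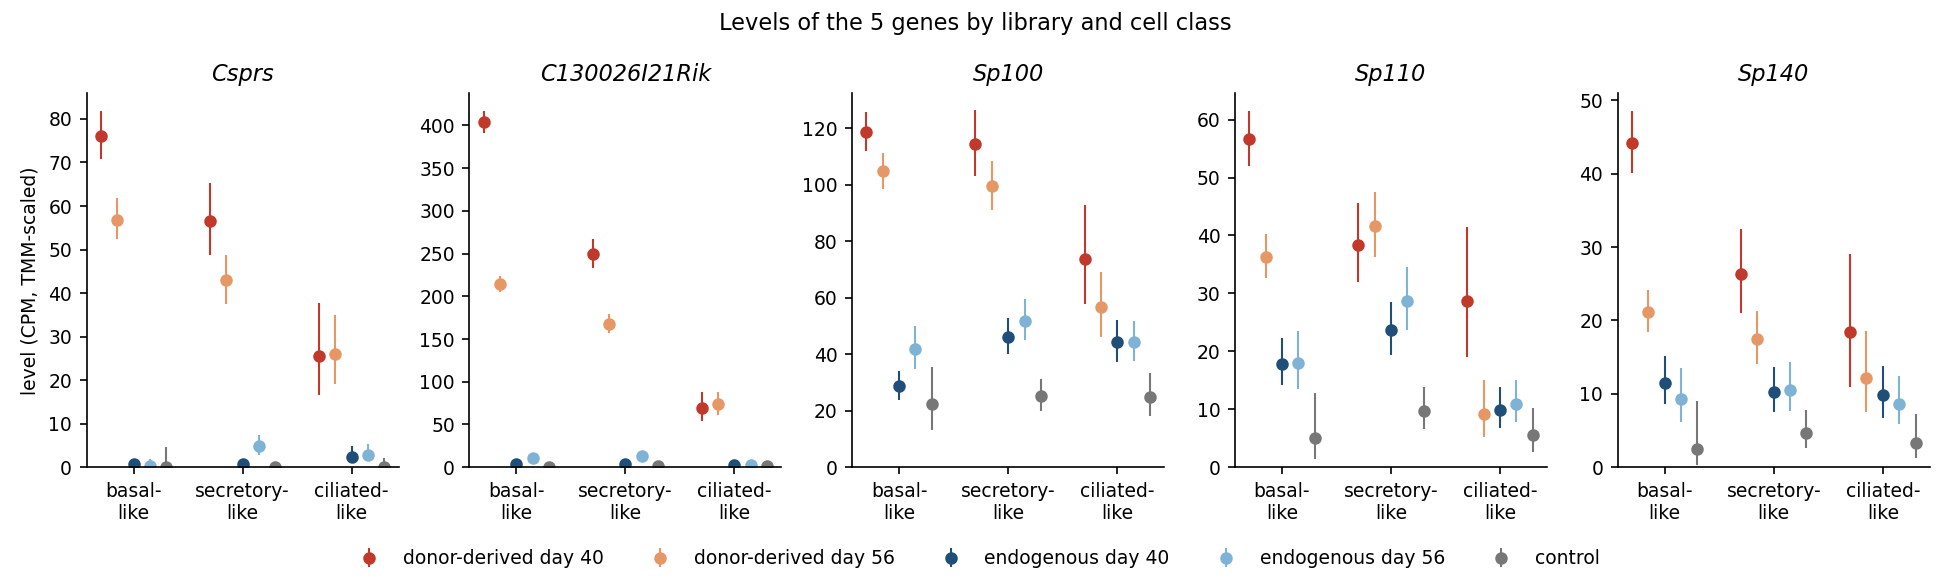
Level of each gene (CPM, TMM-scaled, y axis from 0) in 3 epithelial classes of each library; points are libraries and bars are 95% Poisson intervals of the counts. Donor-derived points lie above the endogenous and control ones except for Sp110 in ciliated-like cells, where donor-derived day 56 had 9.26 CPM against 9.82 and 11.0 CPM in endogenous libraries.

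Secretory-like cells had the same order of groups. *Csprs* had 56.5 and 42.9 CPM in donor-derived secretory-like cells, against 0.658 and 4.79 CPM in endogenous ones and 0 in the control. *C130026I21Rik* had 250 and 168 CPM in donor-derived cells, against 3.95 and 13.6 CPM in endogenous ones, with 1.26 CPM in the control. The log2 fold changes were 4.23 ± 0.59 for *Csprs* and 4.60 ± 0.69 for *C130026I21Rik*. Without the endogenous library of day 40 they were 3.36 for *Csprs* and 3.93 for *C130026I21Rik*, and without that of day 56 they were 6.18 for *Csprs* and 5.72 for *C130026I21Rik*. They were 1.13 ± 0.14 for *Sp100*, 0.62 ± 0.17 for *Sp110* and 1.04 ± 0.25 for *Sp140*. The value of *Sp110* ran from 0.36, with the 5 genes among the variable genes, to 0.81, without TMM, over 11 alternatives.

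Ciliated-like cells, with 41 and 117 donor-derived cells, had smaller log2 fold changes than the other 2 classes for *Csprs* (3.33 ± 0.34), *Sp100* (0.63 ± 0.20) and *Sp140* (0.76 ± 0.34), and 4.80 ± 0.25 for *C130026I21Rik*. Of the 41 cells of day 40, 22 lay in cluster 16. Clusters 6 and 13, mostly of endogenous and control cells, held 11 and 8 of them. The part of those cells in the fold changes was not tested. *Csprs* had 25.6 and 26.1 CPM in donor-derived ciliated-like cells, against 2.45 and 2.89 CPM in endogenous ones and 0 in the control. *C130026I21Rik* had 69.6 and 73.5 CPM in donor-derived cells, against 3.07 and 2.31 CPM in endogenous ones, with 1.66 CPM in the control. *Sp100* had 73.6 and 56.7 CPM in donor-derived cells, against 44.2 and 44.2 CPM in endogenous ones, with 24.9 CPM in the control. *Sp110* overlapped between the groups, with 28.6 and 9.26 CPM in donor-derived cells, against 9.82 and 11.0 CPM in endogenous ones, with 5.53 CPM in the control. Its log2 fold change of 0.81 ± 0.50 turned to -0.12 without the donor-derived library of day 40 and was 1.57 without that of day 56.

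Both donor-derived libraries lay above both endogenous ones for 5 of the 5 genes in basal-like cells, 5 in secretory-like cells and 4 in ciliated-like cells. Over all genes tested this held for 26.7% of 11716, 26.4% of 10980 and 20.3% of 10513 genes. Since the genes were chosen on this contrast, nothing is read from these counts. At an adjusted p under 0.05 (edgeR's quasi-likelihood test), 8.07% of genes in basal-like, 15.9% in secretory-like and 3.85% in ciliated-like cells were called in either direction. With the recipient as a block the number called in basal-like cells was 1734 in place of 946.

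The share of single cells with a UMI gave the same order of groups in pooled epithelial cells after each cell was thinned to 5000 UMIs. The shares given here pool all epithelial cells, and the mix of classes differed between libraries. Of 1682 donor-derived cells on day 40, 681 were basal-like and 274 secretory-like, against 73 and 366 of 609 control cells. In secretory-like cells alone *C130026I21Rik* had 58.9% and 45.1% in donor-derived libraries, against 0.843% and 4.74% in endogenous ones, with 0.546% in the control. *Sp110* hardly differed there on day 56, with 12.2% (9.20 to 15.7) in donor-derived against 11.7% (8.13 to 16.1) in endogenous cells. On day 40 it had 12.5% against 7.58%. Of donor-derived epithelial cells, 73.1% (70.9 to 75.3) on day 40 and 57.5% (55.1 to 59.9) on day 56 had a UMI of *C130026I21Rik*. It was found in 1.06% (0.529 to 1.88) and 4.65% (3.29 to 6.35) of endogenous epithelial cells and in 0.493% (0.102 to 1.43) of control ones. *Csprs* was found in 29.4% and 20.4% of donor-derived epithelial cells, against 0.288% and 1.63% of endogenous ones. In the control it was found in 0 of 609 cells; a limit of 3 counts allows a share of cells with a UMI of up to 0.493% at this depth, and the 95% interval reaches 0.604%. This does not limit the share of cells that express the gene. *Sp100* was found in 40.9% and 36.9% of donor-derived cells, against 14.7% and 18.7% of endogenous cells. Its share in the control was 10.3%. The unthinned shares of *C130026I21Rik* were higher, since cells held 10006 to 13239 UMIs at the median: 1544 of 1682 and 1335 of 1730 donor-derived cells, against 40 of 1086 and 95 of 805 endogenous and 9 of 609 control cells. Thinning left out 26 and 60 donor-derived cells, 46 and 9 endogenous cells and 0 control cells with fewer than 5000 UMIs.

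**Figure D2:**
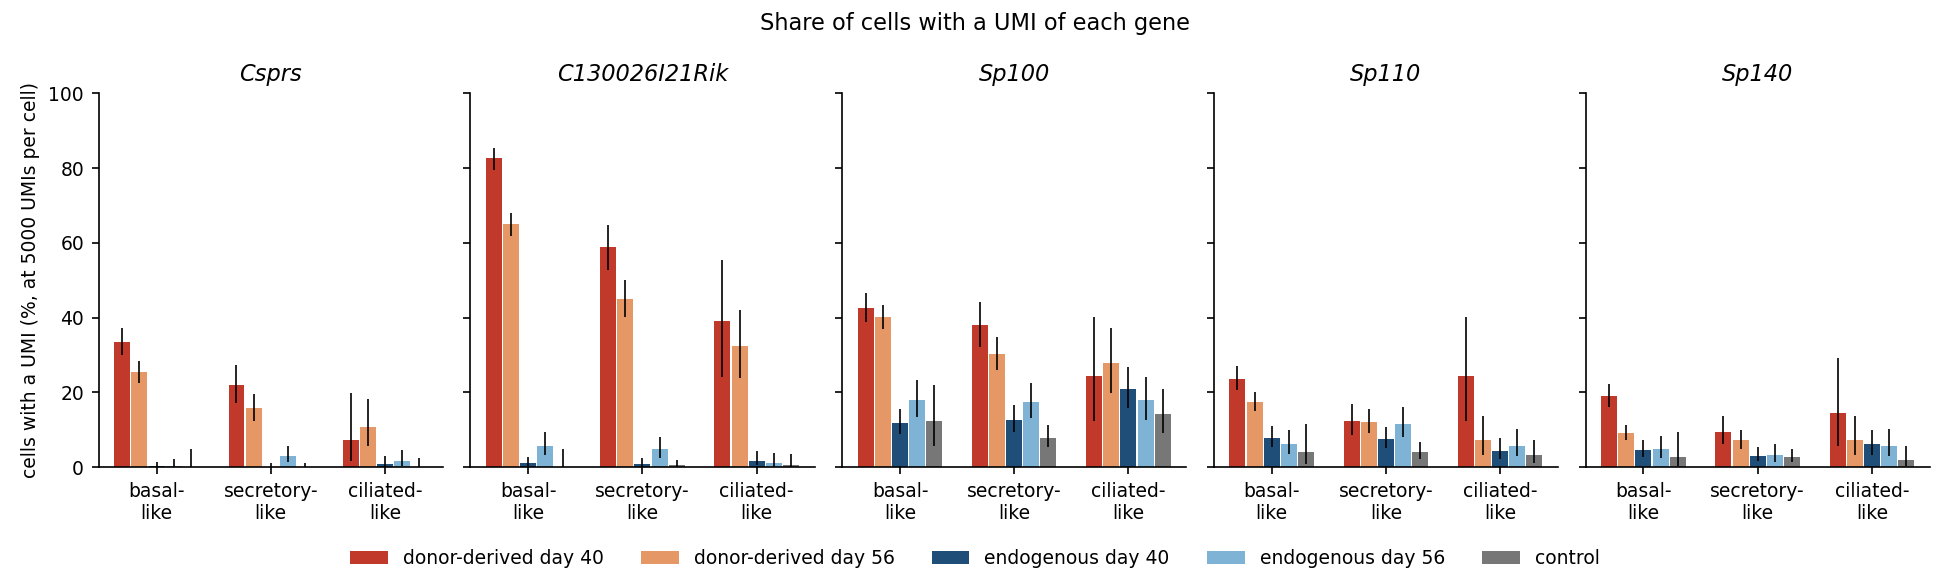
Share of cells with at least 1 UMI of each gene (%, y axis 0 to 100) in 3 cell classes of each library, each cell thinned to 5000 UMIs; bars are shares and lines 95% Clopper-Pearson intervals. In basal-like cells C130026I21Rik reached 82.6% and 65.0% in donor-derived cells, against 1.08% and 5.74% in endogenous ones.

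The sort label and the sequence of the GFP reporter allowed cells to be set against their cluster. In the donor-derived libraries 1686 cells with and 1607 cells without an EGFP UMI lay in the 9 clusters that held at least 90% donor-derived cells among the recipients' cells. *C130026I21Rik* had a UMI in 86.7% of those with and 82.6% of those without an EGFP UMI, with a median of 12132.5 and 10187 UMIs per cell. *Csprs* had a UMI in 50.8% and 41.7% of them. A further 18 donor-derived cells with and 51 without an EGFP UMI lay in 14 clusters mostly of endogenous cells, and *C130026I21Rik* had a UMI in 13 and 22 of them. In the endogenous libraries 28 cells, none with an EGFP UMI, lay in clusters mostly of donor-derived cells, and *C130026I21Rik* had a UMI in 6. Leaving such cells out of the endogenous classes changed the unscaled level of *Csprs* in secretory-like cells of day 56 to 2.80 CPM, against 3.11 CPM with them. Of donor-derived epithelial cells with a *Csprs* UMI, 95.5% and 83.9% also had one of *C130026I21Rik*, close to its unthinned share of 91.8% and 77.2% in all donor-derived epithelial cells.

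Within donor-derived cells the 5 genes were not at 1 level throughout, and here the classes were tested. The genes had been chosen on donor-derived against other cells. Basal-like cells were the largest named class of the donor-derived libraries, with 681 and 957 cells, against 41 and 117 ciliated-like ones. The choice may thus have favoured genes high in basal-like cells, and the tests are not independent of it. All 5 were lower in ciliated-like than in basal-like cells of the donor-derived libraries. The log2 fold change was -1.27 ± 0.21 for *Csprs* (adjusted p = 0.000913) and -1.96 ± 0.23 for *C130026I21Rik* (adjusted p = 0.00016). It was -0.74 ± 0.16 for *Sp100* (adjusted p = 0.00434), -1.36 ± 0.35 for *Sp110* (adjusted p = 0.0134) and -0.98 ± 0.26 for *Sp140* (adjusted p = 0.0120). For each gene the ciliated-like level was the lower one in both libraries. On day 40, 11 and 8 of the 41 ciliated-like cells lay in clusters 6 and 13, mostly of endogenous and control cells. The part of those cells in the lower levels was not tested. Of all genes tested in this contrast 19.9% were called lower. Without the library as a block *Sp140* had an adjusted p of 0.0950, and the other 4 genes kept their calls. Secretory-like against basal-like donor-derived cells gave no call among the 5 genes, where 22.9% of all genes were called; the log2 fold changes ran from -0.53 ± 0.21 for *C130026I21Rik* to -0.06 ± 0.14 for *Sp100*, with adjusted p of 0.0984 or more. At an unadjusted p under 0.05 the test had 3 of the 5, all lower in secretory-like cells, and DESeq2 called 0. With no filter on low counts *C130026I21Rik* was called lower (adjusted p = 0.0453).

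Among clusters of at least 20 donor-derived cells, cluster 8, a basal-like one, had the highest unscaled level of *C130026I21Rik* in both libraries, at 538 CPM on day 40 and 351 CPM on day 56. The ciliated-like cluster 16 had the lowest, at 78.6 and 89.2 CPM. Cluster 8 also had the highest levels of *Sp100* (156 and 160 CPM), *Sp110* (80.2 and 81.7 CPM) and *Sp140* (67.7 and 47.2 CPM). For *Csprs* it was highest on day 40 (96.7 CPM), while on day 56 cluster 2 was (76.6 CPM). The lowest *Sp100* (66.1 CPM) and *Sp110* (11.7 CPM) of day 40 were in the secretory-like cluster 10. The donor-derived clusters that stayed unnamed, numbered 4, 9 and 11, had 200 to 316 CPM of *C130026I21Rik* and 27.0 to 80.0 CPM of *Csprs*, also on the unscaled scale.

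In resident cells, the endogenous and control libraries together, classes were compared with basal-like cells with the library as a block. *Sp100* was higher in secretory-like cells by 0.43 ± 0.16 on the log2 scale (adjusted p = 0.0354), where 17.0% of all genes were called higher. That call was lost in 6 of 9 alternatives, among them DESeq2 (adjusted p = 0.286), no block (adjusted p = 0.453) and leaving out the endogenous library of day 40 (adjusted p = 0.419). In ciliated-like cells *Sp110* was lower (log2 fold change -0.68 ± 0.25, adjusted p = 0.0194), where 27.7% of all genes were called lower. *Csprs* was higher there (log2 fold change 2.04 ± 0.86, adjusted p = 0.0404), where 30.5% of all genes were called higher, which rests on 4 UMIs in resident basal-like and 18 UMIs in resident ciliated-like cells. Without the endogenous library of day 40 the adjusted p was 0.164 for *Sp110* and 0.0753 for *Csprs*; without that of day 56 it was 0.0845 for *Sp110*. DESeq2 called neither (adjusted p = 0.125 for *Sp110* and 0.0932 for *Csprs*), nor did edgeR without the library as a block (adjusted p = 0.131 for *Sp110* and 0.157 for *Csprs*). *C130026I21Rik* was not called (log2 fold change -1.18 ± 0.51, adjusted p = 0.0502), but was called lower in 6 of 9 alternatives.

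**Figure D3:**
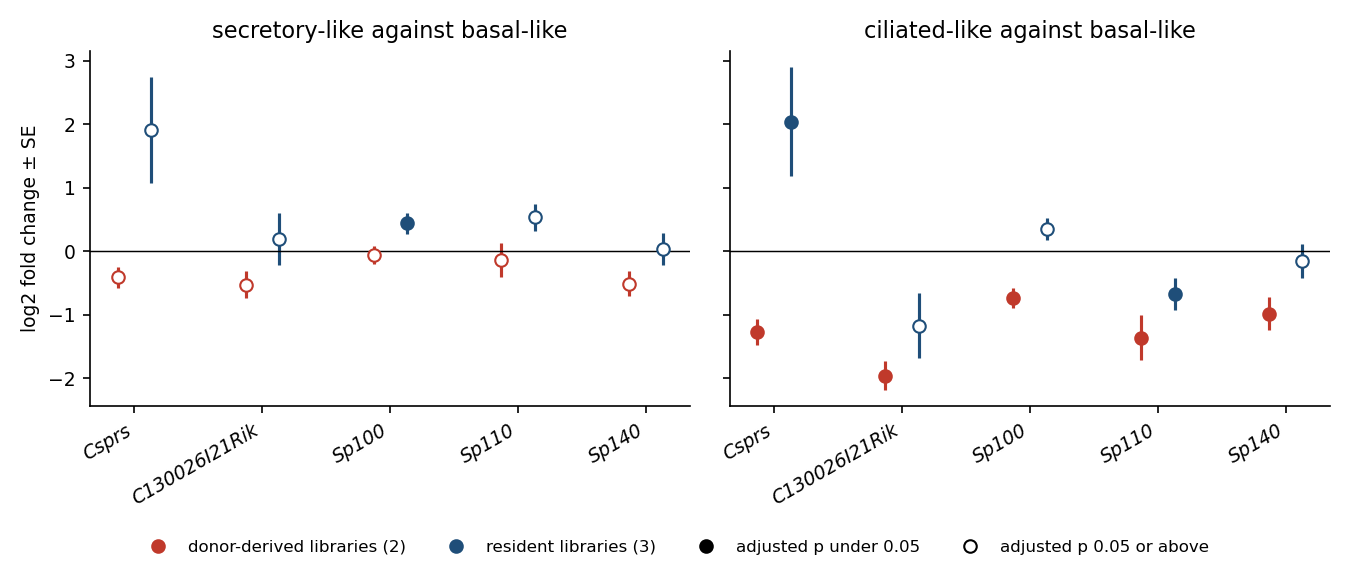
Log2 fold change of each gene (± SE) in secretory-like and ciliated-like cells against basal-like cells, for donor-derived libraries and resident libraries; filled points have an adjusted p under 0.05. All 5 genes were lower in donor-derived ciliated-like cells, from -1.96 for C130026I21Rik to -0.74 for Sp100.

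Immune cells of the recipients had higher levels of the 3 Sp genes than resident basal-like cells. *Sp140* had 326 and 270 CPM in the B-like cells of the endogenous libraries of days 40 and 56, against 11.5 and 9.33 CPM in endogenous basal-like cells. Its log2 fold change in B-like cells was 4.89 ± 0.22 (adjusted p = 2.08e-22). *Sp110* had 219 and 143 CPM in B-like cells (log2 fold change 3.39 ± 0.24, adjusted p = 7.13e-16). *Sp100* had 193 and 109 CPM in B-like cells (log2 fold change 2.11 ± 0.22, adjusted p = 2.61e-10). The B-like sums come from 40 and 59 cells and lay above the basal-like ones in both recipients.

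*C130026I21Rik* and *Csprs* were also higher in B-like than in resident basal-like cells. *C130026I21Rik* had 77.6 and 99.6 CPM in B-like cells, against 4.07 and 11.1 CPM in endogenous basal-like cells (log2 fold change 3.70 ± 0.42, adjusted p = 1.06e-08). *Csprs* had 5.35 and 25.4 CPM in B-like cells, from 2 and 13 UMIs (log2 fold change 4.56 ± 0.90, adjusted p = 6.19e-05). All 5 genes were thus called higher in B-like cells, where 15.1% of all genes were. Low levels in the resident basal-like cells compared here may follow from how the genes were chosen, so nothing is read from this count. In dendritic-like cells *Csprs* was higher, at 11.7 and 15.8 CPM from 4 and 14 UMIs (log2 fold change 4.29 ± 0.87, adjusted p = 7.44e-05), while *C130026I21Rik* was not called, with 5.86 and 9.02 CPM.

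*Sp100*, *Sp110* and *Sp140* were each called higher in macrophage-like, dendritic-like and T and NK-like cells. For *Sp140* the log2 fold change was 2.97 ± 0.26 in dendritic-like, 2.85 ± 0.25 in macrophage-like and 1.98 ± 0.30 in T and NK-like cells. For *Sp110* it was 2.42 ± 0.25 in dendritic-like, 2.10 ± 0.25 in macrophage-like and 2.09 ± 0.26 in T and NK-like cells. For *Sp100* it was 1.85 ± 0.20 in T and NK-like, 1.31 ± 0.23 in dendritic-like and 0.99 ± 0.22 in macrophage-like cells. Of all genes, 19.1% to 21.7% were called higher in these contrasts. Without the endogenous library of day 56 the adjusted p was 0.272 for *Sp140* in T and NK-like cells and 0.0514 for *Sp100* in dendritic-like cells. None of the 5 genes was called in hillock-like cells, where 12.0% of all genes were, or in tuft-like cells, where 25.6% were. By an unadjusted p under 0.05 it was 1 gene in hillock-like cells (*Sp100*) and 0 in tuft-like cells, and DESeq2 called 0 in both. With finer clusters (resolution 2.0) *Sp110* was called higher in hillock-like cells (log2 fold change 0.92, adjusted p = 0.0233). These classes had 22 to 55 endogenous cells per library.

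**Figure D4:**
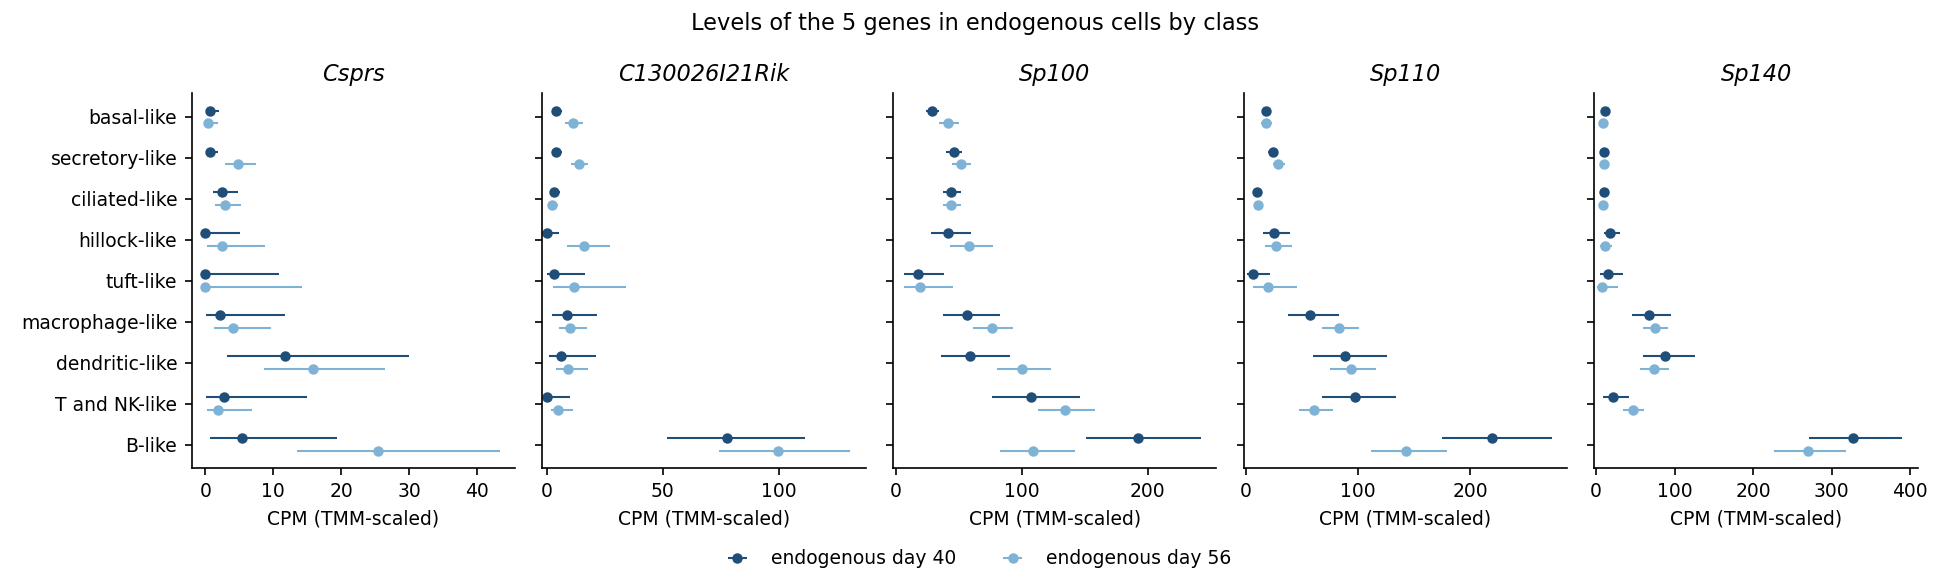
Level of each gene (CPM, TMM-scaled, x axis) in 9 cell classes of the endogenous libraries of days 40 and 56; points are libraries and bars are 95% Poisson intervals. B-like cells have the highest levels of Sp140 (326 and 270 CPM) and of C130026I21Rik (77.6 and 99.6 CPM).

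Since immune cells have high levels of these genes, the immune markers were summed in the epithelial classes. Of 34 immune markers 12 and 17 were detected in donor-derived basal-like cells, against 18 and 14 in endogenous ones, with 4 in the control. Without *H2-Ab1* and *Lyz2*, left out after their values were seen, they summed to 12.1 and 8.41 CPM in donor-derived libraries, against 12.6 and 9.67 CPM in endogenous ones, with 6.24 CPM in the control. The pan-leukocyte gene *Ptprc* had 0 and 0.0989 CPM in donor-derived basal-like cells, against 511 and 373 CPM in endogenous B-like cells, and the B-cell gene *Cd79a* was at 0 in both donor-derived libraries. With *H2-Ab1*, an MHC class II gene, and *Lyz2* included, the sums in basal-like cells were 1045 and 672 CPM in donor-derived libraries, against 606 and 625 CPM in endogenous ones, with 139 CPM in the control. In secretory-like cells the order was the other way, with sums of 943 and 896 CPM in donor-derived libraries, against 6001 and 13218 CPM in endogenous ones, with 3916 CPM in the control. *Lyz2* was itself among the leading genes of the secretory-like cluster 5. Without *H2-Ab1* and *Lyz2* the sums in secretory-like cells were 15.7 and 9.18 CPM in donor-derived libraries. They were 20.6 and 19.9 CPM in endogenous secretory-like cells and 8.18 CPM in the control. *Ptprc* was at 0 in both donor-derived libraries there, against 0.438 and 4.03 CPM in endogenous ones, the last in the library of day 56. In ciliated-like cells the sums were 2004 and 668 CPM in donor-derived libraries, against 2089 and 4157 CPM in endogenous ones, with 1665 CPM in the control. Without *H2-Ab1* and *Lyz2* they were 36.8 and 36.5 CPM, against 40.8 and 57.8 CPM, with 19.9 CPM in the control. The part of this RNA in the results was not tested.

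The genes around the cluster on chromosome 1 were read out by position, as all annotated genes between or within 500 kb of these genes with a mean of at least 1 CPM. Of 59 annotated neighbours 32 were in the files and 10 passed that level. The mean was taken over all the sums, so a low gene could reach it through the group where it was high. *A530032D15Rik*, *A530040E14Rik*, *Gm16028* and *Gm16025*, at 0 to 1.04 CPM in endogenous and control basal-like cells, and *A630001G21Rik* are low genes of this kind, and their values are given with no test or count. *A530032D15Rik*, *A530040E14Rik* and *Gm16028* lie within the span of *C130026I21Rik*, the last and *A530040E14Rik* on the opposite strand, and *Gm16025* lies between *C130026I21Rik* and *Sp110*. Whether counting used the strand is not stated, so reads of these overlapping genes are uncertain as to their gene. *A530032D15Rik* had 9.65 and 6.93 CPM in donor-derived basal-like cells and 0 in the endogenous and control ones, at least 20.2-fold higher against a floor of 3 counts over the endogenous group. *A530040E14Rik* had 11.9 and 7.12 CPM in donor-derived cells, against 0 and 0.346 CPM in endogenous ones. *Gm16028* had 8.52 and 7.02 CPM in donor-derived cells, against 0 and 0.346 CPM in endogenous ones. *Gm16025* had 6.98 and 11.8 CPM in donor-derived cells, against 0 and 1.04 CPM in endogenous ones.

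The outer neighbours of higher level were not called. *Trip12*, an E3 ubiquitin ligase gene, had 80.9 and 82.0 CPM in donor-derived basal-like cells, against 77.2 and 90.9 CPM in endogenous ones (adjusted p = 0.860). *Cab39* had 83.9 and 111 CPM in donor-derived cells, against 101 and 113 CPM in endogenous ones (adjusted p = 0.733). *Psmd1*, a proteasome subunit gene, had 84.4 and 62.3 CPM in donor-derived cells, against 68.9 and 73.6 CPM in endogenous ones (adjusted p = 0.977). *Fbxo36* and *Itm2c* were called in none of the 3 classes. *A630001G21Rik*, the next gene after *Sp100*, averaged 0.354 CPM in donor-derived basal-like cells, from 7 UMIs, against 3.03 CPM in endogenous ones, from 21 UMIs. The share of *A530032D15Rik* reads that fall in its stretches in common with *C130026I21Rik* was not tested.

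**Figure D5:**
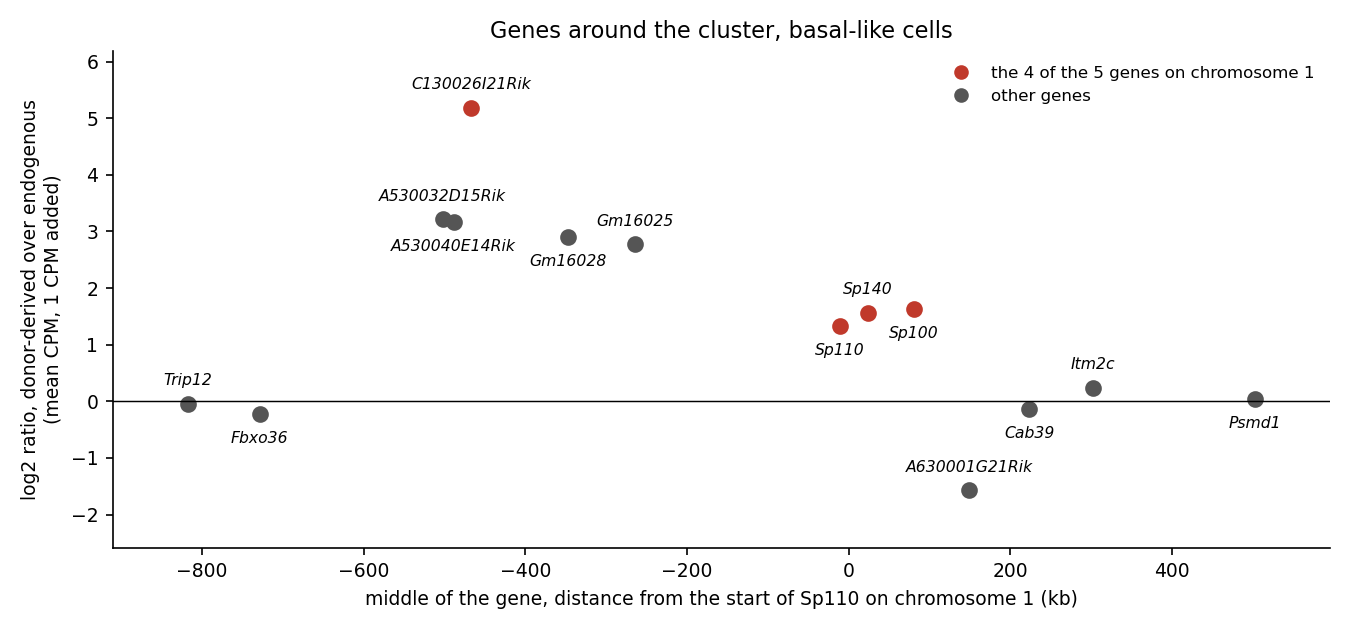
Log2 ratio of the mean level in donor-derived over endogenous basal-like cells (1 CPM added, y axis) against distance from the start of Sp110 in kb (x axis), for 4 of the 5 genes and 10 neighbours. Genes from A530032D15Rik to Sp100 lie above 0 and the outer genes near or below it. No boundary is read from this. The 4 genes were chosen as high in donor-derived cells. A530032D15Rik, A530040E14Rik, Gm16028 and Gm16025 could pass the mean of 1 CPM through those cells. Neighbours below that mean are not shown.

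Other genes of the pathways in which Sp100 and its relatives take part were read from lists, also chosen with earlier results of these data known. Of 20 genes of PML nuclear bodies 1 was called in basal-like cells, *Trim24*, a transcriptional cofactor, with 70.6 and 54.6 CPM in donor-derived, against 32.3 and 31.8 CPM in endogenous cells (log2 fold change 0.94 ± 0.18, adjusted p = 0.0289). Over all genes 2.72% were called higher and 5.35% lower in basal-like cells, so that 1 of 20 is near the background. Their median log2 fold change was 0.15, against 0.00 over all genes tested. In secretory-like cells 1 was called higher, where 6.92% of all genes were called higher and 8.94% lower. In ciliated-like cells none was called, where 1.92% of all genes were called higher and 1.93% lower, with 3 at an unadjusted p under 0.05 and 0 by DESeq2. Of 5 tested SAND and AIRE-type genes edgeR and DESeq2 called 0 in each of the 3 classes, and 1 in each class had an unadjusted p under 0.05. Their median in basal-like cells was 0.03.

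Among interferon-stimulated genes 3 of 27 tested were called higher in donor-derived basal-like cells and none lower, against the 2.72% and 5.35% of all genes given above, with a median log2 fold change of 1.04. With the recipient as a block 13 were called higher, and by DESeq2 12. The 3 were *Isg15*, a ubiquitin-like modifier, with 132 and 90.5 CPM in donor-derived, against 46.3 and 54.6 CPM in endogenous cells, with 7.49 CPM in the control, *Rtp4* (log2 fold change 0.85 ± 0.18, adjusted p = 0.0443) and the RNA sensor gene *Ddx58* (0.80 ± 0.17, adjusted p = 0.0423). In secretory-like cells 7 of 27 were called higher and none lower, where 6.92% of all genes were called higher and 8.94% lower; with the block it was 12 higher and 1 lower. Their median was 0.62 in secretory-like and 0.97 in ciliated-like cells. In ciliated-like cells 8 of 28 were called higher and 1 lower (11 and 1 with the block), where 1.92% of all genes were called higher and 1.93% lower. Of 19 interferon regulators 1 was called in basal-like cells, *Irf7*, which was lower, with 5.03 and 3.17 CPM in donor-derived, against 16.7 and 12.1 CPM in endogenous cells, with 1.25 CPM in the control (log2 fold change -1.85 ± 0.33, adjusted p = 0.0254). That 1 of 19 is near the 5.35% of all genes called lower. The median of the regulators in basal-like cells was 0.41. With the recipient as a block 4 regulators were called higher there and 1 lower. In secretory-like cells 2 and in ciliated-like cells 3 regulators were called higher and none lower. With the block it was 2 higher and 1 lower in secretory-like and 4 higher in ciliated-like cells. DESeq2 called 1 higher and 1 lower in secretory-like and 2 higher in ciliated-like cells. *Irf7* was not called in either class. Its log2 fold change was -1.09 ± 0.39 in secretory-like cells and, the other way, 1.06 ± 0.24 in ciliated-like cells, where the block called it higher (adjusted p = 0.00383).

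Over the 15 sums of 3 classes and 5 libraries, genes were ranked by how alike their log2 level ran to each of the 5. This took in 8398 genes with a mean of at least 10 CPM. Mitochondrial, ribosomal protein and Gm-number genes were left out. The 15 sums share libraries, so the correlations are descriptions. Since the 5 genes were chosen as high in donor-derived cells, a high r with other genes high there follows from that choice. A gene low elsewhere could reach the mean of 10 CPM through donor-derived cells, as *AC133103.1* below did. For *Csprs* the nearest was *AC133103.1* on the unplaced scaffold GL456211.1 (Pearson r = 0.98), which had 112 and 61.6 CPM in donor-derived basal-like cells, against 0.226 and 0.691 CPM in endogenous ones and 0 in the control. It was followed by *Aim2*, a gene of a cytosolic DNA sensor, and *Cdkn2a*, a gene of cell cycle inhibitors, both with r = 0.97. For *C130026I21Rik* the nearest were *Filip1l* (r = 0.99), *AC133103.1* (r = 0.98) and *AC168977.1* on scaffold GL456212.1 (r = 0.97). For *Sp100* they were *C130026I21Rik*, *Csprs* (both r = 0.95) and *AC133103.1* (r = 0.94). *Sp110* and *Sp140* ran most like other genes, namely *Slfn2* (r = 0.97), *Idnk* (r = 0.96) and the proteasome activator gene *Psme1* (r = 0.95) for *Sp110*, and the guanylate-binding protein gene *Gbp4*, *H2-DMb2* of MHC class II loading and the interferon regulatory factor gene *Irf1* (each r = 0.96) for *Sp140*. Between *Csprs* and *Sp110* the correlation was 0.74.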

How the data were processed

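The 5 libraries were made with the 10x Chromium system, per the labels' protocols. The authors deposited UMI counts, as whole numbers for each gene in each barcode, with human and mouse features, per the file headers. Per the submitters' processing notes, GRCm38 and GRCh38 were the builds, and Seurat, STARsolo and Cell Ranger the tools; the sources used here do not say which tool made the matrices. The 5 genes, the gene lists and the tests were chosen with earlier results of these data known.

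Barcodes with over 10% human UMIs (192), under 500 genes or over 20% mitochondrial UMIs (38) and Scrublet doublets (48, 0.727%) were left out. Scanpy 1.11.5 clustered the cells (2000 variable genes without the 5 genes, 30 components, 15 neighbours, Leiden resolution 1.0). Clusters were named from at least 3 detected markers; the rule that a cluster with none of its markers among its 10 leading genes needs 75% of them detected was set after seeing the data. Counts were summed per library and class (at least 20 cells) and tested with edgeR 4.0.16 (TMM, filterByExpr, robust quasi-likelihood, Benjamini-Hochberg, threshold 0.05; R 4.3.3). DESeq2 1.42.0 was an alternative. On simulated counts for the basal-like comparison edgeR called 40 of 50 genes at each 2-fold change, 50 of 50 at each 4-fold change and 6 of 11516 unchanged genes. The changed genes were drawn only from those with higher counts. The same dispersion was used for all genes and no recipient effect was simulated. These rates therefore do not carry over to genes of low count or wider spread. The SE is approximated from the test. The p-values of donor-derived against endogenous cells measure the spread of 2 libraries a group. Per the series' design text there was 1 recipient for each day, which pairs the donor-derived with the endogenous library of that day; their deviations from the group means correlated at 0.37 in basal-like, 0.21 in secretory-like and -0.03 in ciliated-like cells. Day and control comparisons were not tested, with 1 animal each. The genes named are the 5 genes, up to 4 called genes of a list with the largest change in basal-like cells, the neighbours on the chromosome of at least 1 CPM, and the 3 genes most alike.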

Additional observations from a re-analysis of the deposited data

Results flagged for a closer look

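The level of *Sp100* in ciliated-like against basal-like cells lay on opposite sides in the donor-derived and the resident libraries. It was lower in ciliated-like cells of both donor-derived libraries (log2 fold change -0.74) and higher in those of all 3 resident libraries (log2 fold change 0.35, not called), by 2.42 and 2.43 CPM only in the endogenous library of day 56 and the control. Between secretory-like and basal-like cells the log2 fold change was -0.06 in donor-derived libraries (not called) and 0.43 in resident ones, a call lost in 6 of 9 alternatives. The levels lay close in the donor-derived libraries, with 115 CPM in secretory-like against 119 CPM in basal-like cells on day 40 and 99.5 against 105 CPM on day 56. They did so in the control too, with 25.2 against 22.5 CPM, the basal-like level resting on 18 UMIs with a 95% interval of 13.3 to 35.5 CPM. The difference between donor-derived and resident libraries was not tested, and of the 10 pairs of a gene and a class looked at these are the 2 that split in this way in every library. *Csprs* in ciliated-like cells split in all libraries but the control, which had 0 UMIs in both classes. Its log2 fold change was -1.27 in donor-derived and 2.04 in resident libraries, both called. The resident value rests on 4 UMIs in basal-like cells, and DESeq2 did not call it.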

How the results depend on the processing

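In basal-like cells 946 genes were called between donor-derived and endogenous cells, 1734 with the recipient as replicate block, and 275 to 1797 when 1 library was left out. In secretory-like cells 1742 genes were called, and 1111 to 1863 when 1 library was left out. In ciliated-like cells 405 genes were called, 791 with no filter on low counts, and 50 to 2110 when 1 library was left out, with the lowest count without the endogenous library of day 40. The cause was not tested. Of 165 log2 fold changes of the 5 genes under alternatives, 1 was reversed (*Sp110* in ciliated-like cells, -0.12 without the donor-derived library of day 40) and 11 moved by more than the spread between recipients. *Sp110* in ciliated-like cells ranged up to 1.57, without the donor-derived library of day 56. Of 394 class contrasts of the 5 genes under alternatives, 366 kept their call, 17 lost it and 11 gained it, with no called direction reversed. In secretory-like and ciliated-like cells the replicate block moved the number of genes called by less than 1.5 times. Leaving endogenous cells in clusters of donor-derived cells out, chosen after seeing the data, moved 0 of 30 levels beyond their 95% Poisson interval. Without thinning, 97 of 150 shares of cells lay outside the interval of the thinned share, and over all barcodes of a library 10 of 25 levels moved beyond counting error. Depth limits *Csprs* most, with 4 UMIs in endogenous basal-like cells and 0 in the control, and the control library has 73 basal-like cells.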
